A study of Rattus norvegicus with 16 samples.

Results

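The class I pathway of the major histocompatibility complex was followed in rat dorsal root ganglia (DRG) after tumor cell implantation (TCI). The set held 43 of the 21021 genes listed for every sample. It took in 28 rat class I rows, whose symbols start with RT1- (the name of the complex in the rat) but not with the class II prefixes RT1-B, RT1-D or RT1-H, and 15 genes of antigen processing: B2m, Tap1, Tap2, Tapbp, Tapbpl, Psmb8, Psmb9, Psmb10, Psme1, Psme2, Erap1, Nlrc5, Pdia3, Calr and Canx. The choice was made by symbol, with earlier results of these data known. RNA of whole ganglia was sequenced in 16 samples, 4 each of a sham group and of TCI day 1, day 7 and day 14, and the values were FPKM (fragments scaled to the length of the transcript and the size of the library), so that levels of different genes are compared here per length. The comparison asks how these transcripts stood in sensory ganglia while a bone tumor, and with it pain, developed.

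All animals were adult female Sprague-Dawley rats, an outbred stock. In the TCI groups, Walker 256 mammary gland carcinoma cells were put into the cavity of the left tibia, and ganglia were taken on day 1, 7 or 14. The sham rats received PBS in the same place by the sample labels, while the methods of the study describe boiled tumor cells. Sham samples carry the day 14 label only, so time since surgery and TCI cannot be told apart on day 1 and day 7. According to the methods, the lumbar ganglia on the injected side of an animal were pooled as 1 sample, so each replicate was a rat. Bulk RNA cannot tell fewer cells of a type from less RNA per cell.

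Class I molecules consist of a heavy chain and the light chain beta-2 microglobulin, and they carry peptides of proteins made inside a cell to its surface, where CD8 T cells read them. The peptides are cut by the proteasome, moved into the endoplasmic reticulum by the transporter TAP, trimmed there and loaded with the help of chaperones. Interferon gamma is known to raise most of these genes together, through IRF1 and the transactivator NLRC5 among others, and resting neurons are known for low class I levels.

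Promoter windows of RefSeq (build GRCr8, 250 bases before to 50 after the annotated start) were found for 36 of the 43 members. The motifs reported here, searched on both strands, were the core of an interferon response element, a pair of GAAA repeats with 2 free bases between them; TGACGC, part of the X box; and ATTGG, an inverted CCAAT box. TTTCACTT and GATTCCCC were added after the windows had been read, because several RT1-A and RT1-CE windows held them; the second resembles an NF-kappaB site. Not all such windows did: RT1-CE2 had neither, RT1-CE3 lacked GATTCCCC and RT1-CE4 lacked TTTCACTT. The lines that follow show the motif-bearing stretch of 3 heavy chains at the highest mean FPKM (RT1-A2, RT1-CE5 and RT1-CE10), of a heavy chain from another RT1 region (RT1-S3), of the light chain, of a transporter subunit and of a chaperone whose level stayed near sham (Canx). Capitals mark matches to these motifs on either strand. Sequences read 5′ to 3′ along the gene.
RT1-A2, chr20:4872690-4872829, plus strand, bases 181 to 42 before the start: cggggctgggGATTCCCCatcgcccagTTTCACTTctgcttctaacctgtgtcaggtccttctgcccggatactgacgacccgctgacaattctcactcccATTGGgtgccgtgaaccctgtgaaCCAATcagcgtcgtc
RT1-CE5, chr20:3484124-3484264, minus strand, bases 174 to 34 before the start: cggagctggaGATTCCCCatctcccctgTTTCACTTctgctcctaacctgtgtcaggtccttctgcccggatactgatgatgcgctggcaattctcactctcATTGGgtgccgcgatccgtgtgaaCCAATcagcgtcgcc
RT1-CE10, chr20:3385041-3385180, minus strand, bases 201 to 62 before the start: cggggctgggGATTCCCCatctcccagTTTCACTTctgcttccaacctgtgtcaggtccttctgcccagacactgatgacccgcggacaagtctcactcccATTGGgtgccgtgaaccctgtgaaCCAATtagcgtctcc
RT1-S3, chr20:2675406-2675502, plus strand, bases 122 to 26 before the start: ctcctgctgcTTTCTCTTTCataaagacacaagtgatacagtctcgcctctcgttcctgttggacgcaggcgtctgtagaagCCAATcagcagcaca
B2m, chr3:129549170-129549280, plus strand, bases 160 to 50 before the start: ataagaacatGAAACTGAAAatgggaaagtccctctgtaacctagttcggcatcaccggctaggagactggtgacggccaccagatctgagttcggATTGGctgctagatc
Tap1, chr20:4668645-4668674, minus strand, bases 131 to 102 before the start: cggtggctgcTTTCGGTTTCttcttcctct
Canx, chr10:35158000-35158097, minus strand, bases 240 to 143 before the start: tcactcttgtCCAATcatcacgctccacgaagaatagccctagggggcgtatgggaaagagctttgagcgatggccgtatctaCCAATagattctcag

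The 3 heavy chain stretches from the RT1-A and RT1-CE regions carry GATTCCCC, TTTCACTT and a pair of CCAAT boxes in the same order. The interferon element core was found in 10 of the 36 member windows, those of B2m, Psmb8, Psmb10, Psme2, Tap1, Tap2, Tapbp, RT1-N3, RT1-S2 and RT1-S3, and in 4.12% of all 27457 genes with a window. ATTGG was found in 22 members (39.6% of all genes) and TGACGC in RT1-M3-1 alone (7.59%). TTTCACTT stood in 13 windows (1.94% of all genes) and GATTCCCC in 7 (0.86%), 6 of them in RT1-A and RT1-CE genes, and both shares describe the windows that the motifs were taken from. In several windows, Tap2 and Psmb10 among them, TTTCACTT and the interferon element core overlapped. A match is a string of letters and not a shown binding site. Likewise, a window without the interferon element core is not shown to lack an interferon element of another spelling.

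**Figure D1:**
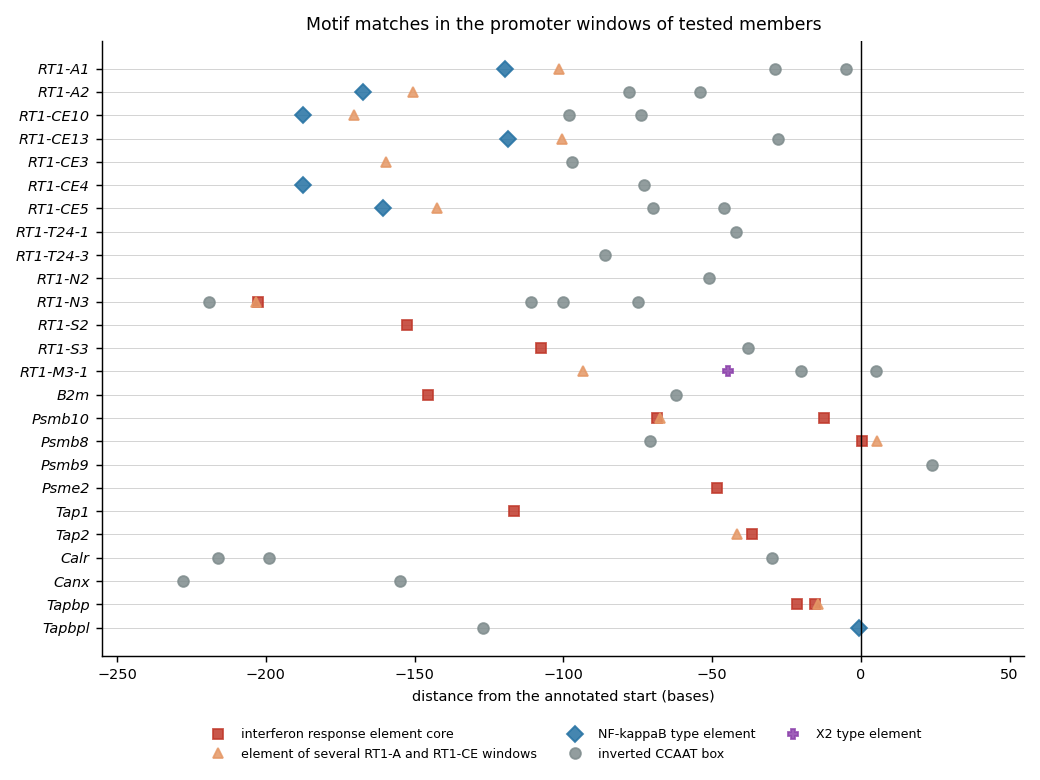
Motif matches in the promoter windows of the tested members with at least 1 match; the horizontal axis is the distance in bases from the annotated start, each row is a gene and each symbol is the middle of a match on either strand. GATTCCCC (diamonds) stands upstream of TTTCACTT (triangles) in the RT1-A1, RT1-A2, RT1-CE5, RT1-CE10 and RT1-CE13 windows, and the interferon element core (squares) stands in B2m, Tap1, Tap2, Psmb8, Psmb10, Psme2 and Tapbp.

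By RefSeq's gene order, 32 members lie on chromosome 20, where the complex is, and Tap2, Psmb8, Tap1 and Psmb9 follow each other there with no other protein-coding gene between them. Similar RT1 copies can share reads, and the quantification by RSEM splits such reads between them by estimate, so the split among RT1 rows is uncertain and their sum is less so.

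Of the 43 members, 35 passed a filter of at least 1 FPKM in at least 3 samples and were tested together with all 14023 genes that passed it. The other 8 were RT1-M1-4, RT1-M1-5, RT1-M10-1, RT1-M2, RT1-M4, RT1-M5, RT1-M6-1 and RT1-T18. None of them was above 0.62 FPKM in any sample, and RT1-T18 was listed at 0 in every sample. The study left out TCI day 1 replicate 2 and TCI day 7 replicate 3, and the tests here use the other 14 samples; the values of both are given apart. The day 7 library left out held a summed FPKM of 18254 over 6 skeletal muscle markers, against 10.1 to 15 in the other day 7 libraries. Sham replicate 4 stood at 426.9 on that sum. Sensory neuron markers summed to between 6666 and 8395 FPKM in each library of the fit, as the tissue label has it.

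Most of the pathway stood higher on day 7 and day 14 after TCI and near sham on day 1. A gene was said to rise or fall where limma gave a Benjamini-Hochberg adjusted p of at most 0.001 over all genes tested and a difference of at least 1 in log2(FPKM + 1). On day 7, 15 of the 35 members rose and 0 fell, while 1.83% of all genes tested rose. On day 14, 14 rose and 0 fell, while 0.642% of all genes did. These 14 had all risen on day 7, and Tap2 was the 1 that passed on day 7 alone. The day 7 and day 14 comparisons share their sham samples.

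The median difference over the 35 members was 1.72 on day 7 and 1.60 on day 14 on the log2 scale, against 0.04 and 0.03 over all genes tested. At an adjusted p of at most 0.05, with the same limit on size, 24 members passed on day 7 (3.93% of all genes) and 25 on day 14 (2.58%), 23 of them on both days. All samples of the group lay above all sham samples for 30 members on day 7 (23.8% of all genes) and for 27 on day 14 (13.8%). Leaving out 1 library at a time moved the number that rose between 5 and 24 on day 7 and between 7 and 18 on day 14, and the number at 0.05 between 20 and 25 and between 21 and 27. RT1-A1, RT1-A2, RT1-CE2, RT1-CE5 and RT1-CE10 rose in all 14 of those fits on both days.

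On day 1, 0 members rose or fell by limma (0% of all genes in either direction), and 0 had an unadjusted p under 0.05, against 2.91% of all genes higher and 2.32% lower. The median member difference was 0.08 on the log2 scale. From day 7 to day 14, 0 members rose (0% of all genes) and 0 fell (0.0143%), with 0 at an unadjusted p under 0.05 (2.95% of all genes higher and 7.01% lower); the differences ran from -0.28 for Tap2 to 0.54 for RT1-N2, and the lowest adjusted p was 0.637.

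**Figure D2:**
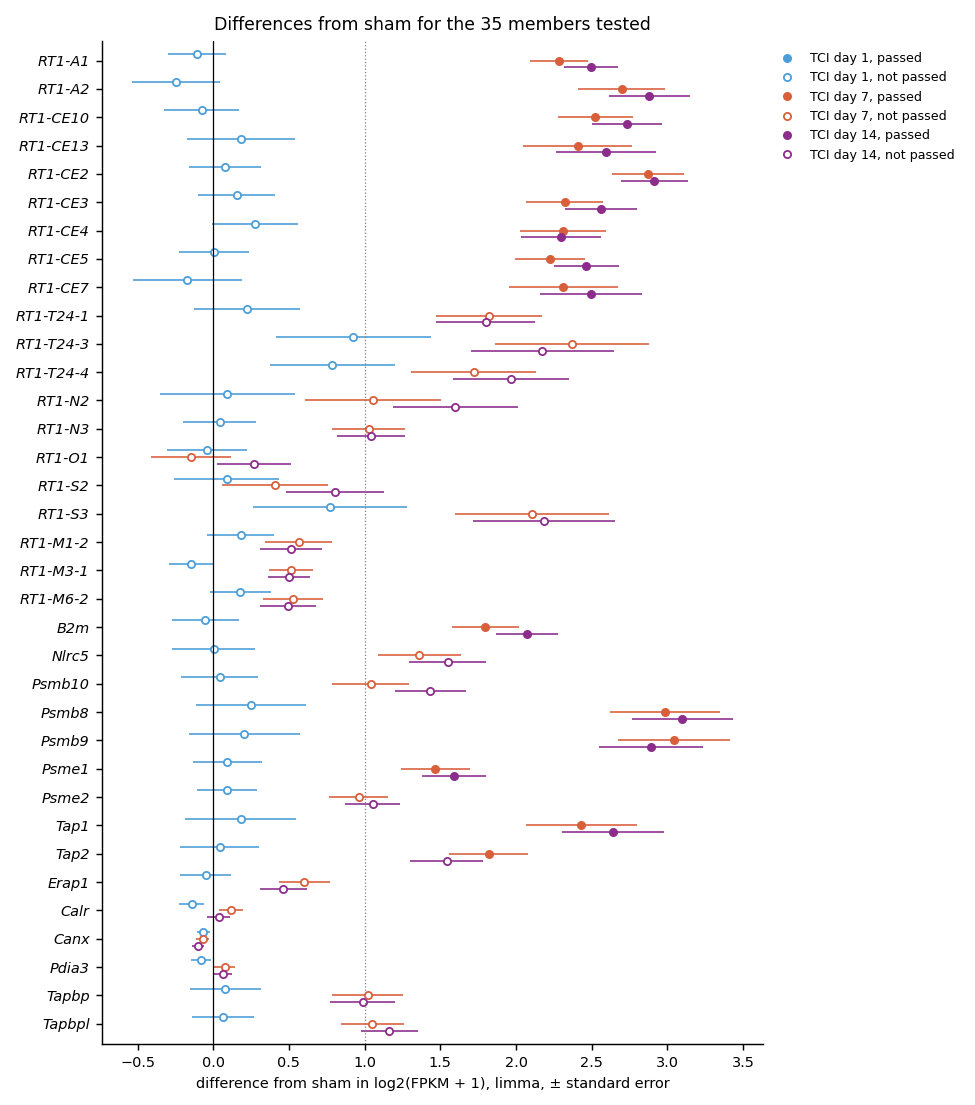
Differences from sham in log2(FPKM + 1) for the 35 members tested, as points with the standard error from limma; colors give the day, filled points passed an adjusted p of 0.001 and a difference of 1 (dotted line). The 9 RT1-A and RT1-CE rows lie between 2.22 and 2.91 on days 7 and 14, Calr, Canx and Pdia3 lie near 0, and no day 1 point is filled.

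The heavy chains of the RT1-A region, the classical class I genes of the rat, and of the RT1-CE region rose on both days, all 9 rows of them. RT1-A2, the row at the highest mean level, was at 41.5, 43.5, 55 and 29.5 FPKM in sham and at 52.4, 29.8 and 26.8 FPKM on day 1. It was at 375.6, 218.5 and 250.7 FPKM on day 7 and at 318.5, 464.7, 284.7 and 221.7 FPKM on day 14. Every day 7 and day 14 sample was above every sham sample, and day 1 overlapped sham. The libraries left out stood at 38.7 (day 1) and 349.8 FPKM (day 7), within the other samples of their groups. The difference was 2.70 ± 0.29 (log2, SE; limma adjusted p = 0.000111) on day 7 and 2.88 ± 0.27 (9.88e-05) on day 14.

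RT1-CE5 was at 32.4, 32.4, 40.0 and 34.2 FPKM in sham and 38.0, 33.8 and 32.5 FPKM on day 1. It was at 185.2, 162.8 and 150.2 FPKM on day 7 and at 184.9, 347.1, 172.3 and 132.0 FPKM on day 14. The groups did not overlap on the later days, and 1 day 14 rat stood well above the other 3. The mean FPKM was 4.78 times sham on day 7 and 6.02 times on day 14 (log2 2.22 ± 0.23 and 2.46 ± 0.21, SE; limma adjusted p = 9.27e-05 and 8.43e-05).

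RT1-CE10 was at 16.8, 19.1, 21.4 and 14.5 FPKM in sham and 20.8, 16.2 and 14.0 FPKM on day 1. It was at 141.7, 92.2 and 93.8 FPKM on day 7 and at 122.9, 203.8, 107.7 and 86.8 FPKM on day 14. Again the later days lay above all sham samples, with differences of 2.52 ± 0.25 and 2.73 ± 0.23 (log2, SE; limma adjusted p = 7.31e-05 and 8.43e-05). RT1-CE2 had the largest difference of the RT1 rows, 2.87 on day 7 and 2.91 on day 14 in log2(FPKM + 1), with limma adjusted p of 2.56e-05 and 5.06e-05. The other rows of these regions (RT1-A1, RT1-CE3, RT1-CE4, RT1-CE7 and RT1-CE13) lay between 2.29 and 2.60.

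Within day 7 the rats differed in which row was high. RT1-CE7 was at 87.0 FPKM in replicate 1, 29.2 in replicate 2 and 47.4 in replicate 4, and RT1-A1 at 140.4, 75.7 and 85.3 FPKM. RT1-CE13 ran the other way at 66.5, 88.2 and 63.9 FPKM. The split of shared reads between such rows is uncertain, and the cause of these differences was not tested.

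The rows outside the RT1-A and RT1-CE regions were more varied. RT1-T24-3 was at 4.22, 4.09, 6.42 and 3.85 FPKM in sham, 11.8, 6.80 and 10.8 on day 1, 17.2, 37.9 and 32.6 on day 7 and 17.1, 86.0, 19.2 and 11.5 on day 14. RT1-T24-4 and RT1-S3 were likewise lowest in replicate 1 among the day 7 samples and highest in the same day 14 rat, at 119.8 and 140.5 FPKM. RT1-T24-3 and RT1-T24-4 were the members whose day 1 samples all lay above sham by the largest difference (0.92 and 0.79 on the log2 scale), which limma did not separate from the spread (adjusted p = 0.949 and 0.939). RT1-CE4 also lay above sham on day 1 without overlap, and 6.17% of all genes lay above sham in this way. Calr and RT1-M3-1 lay below all sham samples on day 1 (-0.14 and -0.15 on the log2 scale, limma adjusted p = 0.954 and 0.982). The share of all genes below sham in this way is not given here.

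The 3 RT1-T24 rows and RT1-S3 passed at 0.05 on both later days but not at 0.001, with differences between 1.72 and 2.37 on the log2 scale. RT1-N3 passed at 0.05 on both days (1.03 and 1.04). RT1-N2 was uneven: it was at 5.24, 25.3 and 7.00 FPKM on day 7 and at 7.61, 30.0, 11.9 and 17.8 FPKM on day 14, against 4.01 to 4.54 FPKM in sham, and passed at 0.05 on day 14 alone, though its day 14 to day 7 difference had a limma adjusted p of 0.746.

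RT1-M3-1, which presents formylated peptides in its mouse form, was at 8.98 to 10.1 FPKM in sham, from 12.4 to 16.1 on day 7 and from 11.7 to 20.3 on day 14, a difference near 0.51 and 0.50 on the log2 scale that fell short of the limit on size. RT1-M1-2 and RT1-M6-2 stayed at or below 2.80 FPKM in the samples of the fit. Their mean FPKM were 2.13 and 2.01 times sham on day 7 and 2.14 and 2.01 times on day 14. All day 7 samples lay above sham for both (23.8% of all genes), and day 14 overlapped sham. The day 7 differences were 0.57 and 0.53 on the log2 scale (limma adjusted p = 0.0979 and 0.0913). RT1-O1 and RT1-S2 overlapped sham on both days.

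The summed FPKM of the 28 class I rows, which depends less on how shared reads were split, was 213 ± 31.6 in sham (SD, n = 4), 229 ± 33.9 on day 1 (n = 3), 1101 ± 155 on day 7 (n = 3) and 1319 ± 607 on day 14 (n = 4). Sums ran from 184.7 to 258.2 in sham rats and from 835.2 to 2202 on day 14, with no overlap between sham and day 7 or day 14. These means were 5.17 and 6.20 times sham; without TCI day 14 replicate 2 the day 14 mean was 4.81 times sham.

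RT1-A and RT1-CE rows made up 75.7% ± 1.27 of the sum in sham (SD, n = 4), 68.2% ± 2.99 on day 1 (n = 3), 84.5% ± 5.59 on day 7 (n = 3) and 85.4% ± 4.01 on day 14 (n = 4). The day 1 samples, at 64.8% to 70.4%, were all below the sham range of 74.2% to 77.1%, and the day 7 and day 14 samples were all above it. The RT1-T24 rows summed to 25.5 to 35.8 FPKM on day 1 against 13.5 to 23.7 in sham. These sums and shares were not tested.

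B2m, which encodes the light chain shared by class I molecules, was at 196.3, 161.1, 219.2 and 210.6 FPKM in sham and 252.6, 163.5 and 161.8 FPKM on day 1. It was at 675.8, 700.04 and 669.1 FPKM on day 7 and 741, 1320, 768.8 and 615.1 FPKM on day 14. Both later groups lay above all sham samples, with differences of 1.80 ± 0.22 and 2.07 ± 0.20 (log2, SE; limma adjusted p = 0.000217 and 0.000139). The summed heavy chains stood at 1.09 times B2m in sham and 1.21 times on day 1, then at 1.62 times on day 7 and 1.499 times on day 14, a ratio of FPKM whose later values did not overlap sham.

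**Figure D3:**
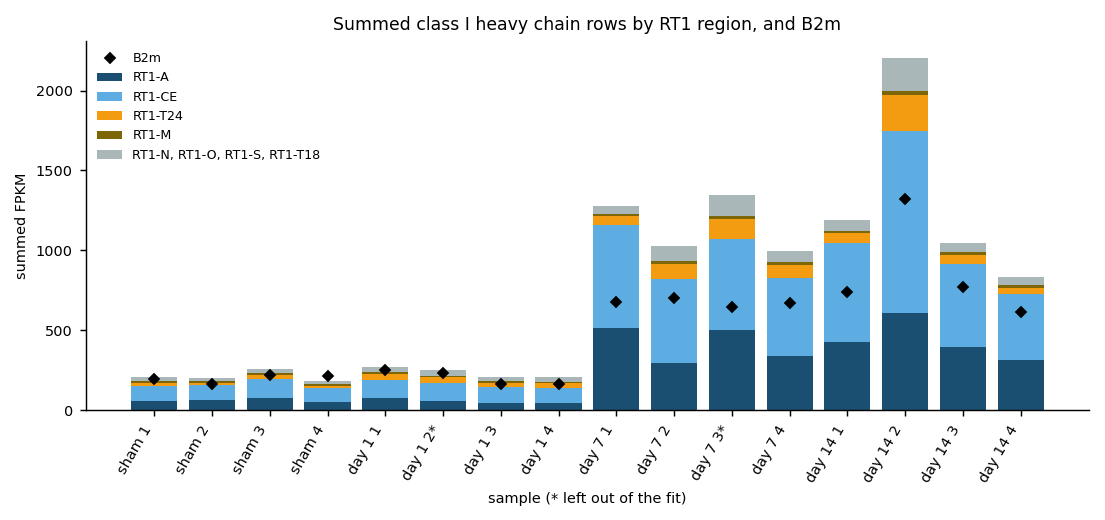
Summed FPKM of the 28 class I rows in each of the 16 samples as stacked bars by RT1 region, with B2m FPKM as diamonds; asterisks mark the libraries left out of the fit. Sham and day 1 bars stay at or below 268.1, day 7 and day 14 bars start at 835.2, and TCI day 14 replicate 2 reaches 2202.

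The immunoproteasome consists of catalytic subunits that take the place of constitutive ones in the proteasome core and change which peptides it yields. Psmb8 was at 3.60, 3.56, 4.60 and 4.94 FPKM in sham and 5.82, 4.09 and 5.57 FPKM on day 1. It was at 41.4, 48.0 and 31.4 FPKM on day 7 and at 31.9, 111.2, 34.5 and 27.7 FPKM on day 14. Every later sample was above every sham sample, and Psmb8 had the largest day 14 difference of all members, 3.10 ± 0.34 (log2, SE; limma adjusted p = 0.000248), after 2.99 ± 0.36 on day 7 (0.000204).

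Psmb9 was at 3.47, 3.15, 5.41 and 4.42 FPKM in sham, 4.73, 4.71 and 5 on day 1, 42.0, 43.4 and 36.7 on day 7 and 26.9, 99.4, 26.4 and 24.5 on day 14. It had the largest day 7 difference, 3.04 ± 0.37 (log2, SE; limma adjusted p = 0.000204), and 2.89 ± 0.34 on day 14 (0.000383). Psmb10 began at a higher level, 20.6, 19.5, 21.7 and 21.3 FPKM in sham and 20.8 to 22.5 on day 1. It reached 47.3, 44.2 and 39.9 FPKM on day 7 and 42.7, 114.2, 55.8 and 40.8 FPKM on day 14. Its ranges did not overlap sham on the later days, but with limma adjusted p of 0.0126 and 0.00213 it passed at 0.05 and not at 0.001.

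The constitutive subunits that these replace stayed near their sham levels. Psmb5 lay between 146.5 and 163.8 FPKM in sham and between 142 and 188.5 on days 7 and 14, and Psmb6 and Psmb7 differed from sham by -0.05 to 0.02 on the log2 scale (limma adjusted p of at least 0.589), with signs of Psmb5 and Psmb6 that turned under another scaling. The ratio of Psmb8 to Psmb5 was 0.0269 ± 0.00325 in sham (SD, n = 4), 0.262 ± 0.0744 on day 7 (n = 3) and 0.328 ± 0.272 on day 14 (n = 4), or 9.74 and 12.2 times sham. Psmb9 to Psmb6 was 9.97 and 10.8 times its sham ratio of 0.0249, and Psmb10 to Psmb7 was 2.20 and 3.14 times its sham ratio of 0.0942. All later samples lay above all sham samples on each ratio. Without TCI day 14 replicate 2 the day 14 values were 7.17, 6.21 and 2.25 times sham.

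**Figure D4:**
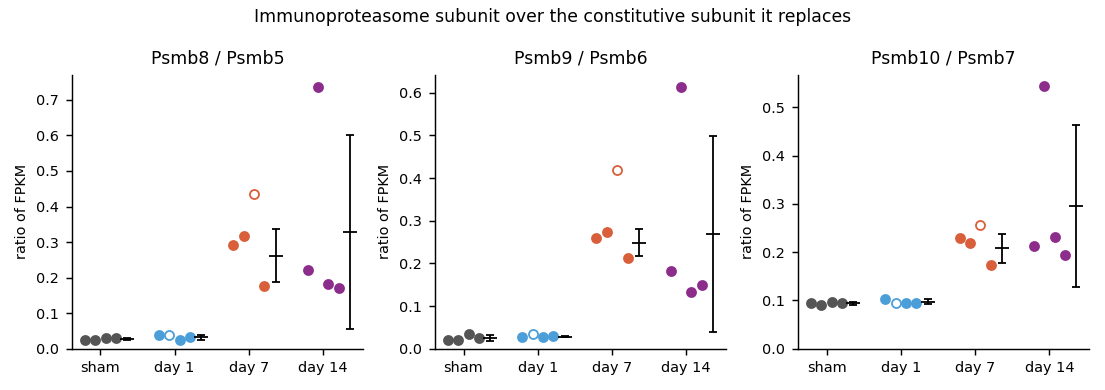
FPKM of an immunoproteasome subunit divided by that of the constitutive subunit it replaces, 1 point per sample (open points left out of the fit), with the mean and SD of the samples in the fit as the bar to the right. Sham and day 1 samples of Psmb8 to Psmb5 stay at or below 0.0388, and the day 7 and day 14 samples start at 0.172, with TCI day 14 replicate 2 at 0.735.

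Psme1 and Psme2 encode the subunits of the proteasome activator that interferon gamma induces. Psme1 was at 22.8 to 27.5 FPKM in sham, 69.4 to 74.7 on day 7 and 58.4 to 144.2 on day 14, and rose on both days (log2 1.47 ± 0.23 and 1.59 ± 0.21, SE; limma adjusted p = 0.000857 and 0.000691). Psme2, at 25.7 to 31.6 FPKM in sham, lay at 55.1 to 57.95 on day 7 and 48.8 to 103.8 on day 14, with 0.96 and 1.05 on the log2 scale; it passed at 0.05 on day 14 alone, by the limit on size.

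Tap1 and Tap2 encode the paired subunits of the peptide transporter. Tap1 was at 4.10, 4.27, 5.73 and 3.90 FPKM in sham, 5.31, 4.84 and 5.42 on day 1, 29.0, 29.4 and 26.95 on day 7 and 25.0, 89.8, 26.9 and 19.3 on day 14. Sham and the later groups did not overlap, and the differences were 2.43 ± 0.37 and 2.64 ± 0.34 (log2, SE; limma adjusted p = 0.00071 and 0.000628). Tap2 was at 4.24, 4.23, 5.83 and 4.46 FPKM in sham, 5.56, 4.16 and 4.82 on day 1, 19.7, 17.98 and 19.3 on day 7 and 14.3, 31.1, 10.97 and 11.5 on day 14. It rose on day 7 (1.82 ± 0.26, adjusted p = 0.00052) and just missed the limit on day 14 (1.54 ± 0.24, 0.00162 by limma), and the step between the days was within the spread.

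Nlrc5, the transactivator of class I genes, was low in sham at 0.41, 0.30, 0.55 and 0.41 FPKM and on day 1 at 0.53, 0.35 and 0.38 FPKM. It was at 2.73, 3.15 and 2.10 FPKM on day 7 and 2.62, 7.47, 2.14 and 2.04 FPKM on day 14. The mean was 6.37 and 8.54 times sham, and the differences of 1.36 ± 0.28 and 1.55 ± 0.25 on the log2(FPKM + 1) scale, which understates the change of a gene at this level, had limma adjusted p of 0.0045 and 0.00215. Nlrc5 reached 1 FPKM in no sham or day 1 sample. It passed the filter on low values only through day 7 and day 14, so its test is no independent support for a rise.

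The members that work inside the endoplasmic reticulum split into those that passed at 0.05 on at least 1 day and those that did not. Tapbp (tapasin, which tethers class I molecules to TAP) was at 18.8 to 20.7 FPKM in sham, 37.2 to 47.0 on day 7 and 30.1 to 75.2 on day 14. Tapbpl, a tapasin relative that edits peptides, was at 7.27 to 8.64, 16.6 to 19.2 and 13.9 to 33.4 FPKM. Tapbpl passed at 0.05 on both days (1.05 and 1.16 on the log2 scale) and Tapbp on day 7 (1.02), since its day 14 difference was 0.99. Erap1, the peptidase that trims peptides there, had differences of 0.60 and 0.46 on the log2 scale, under the limit on size on both days.

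Canx, the chaperone that holds new heavy chains, was at 169.5, 177.3, 167.7 and 163.8 FPKM in sham and 165.7, 157 and 163.3 on day 1. It was at 159.3, 162.5 and 162.2 FPKM on day 7 and 160.7, 162.8, 147.9 and 161.6 FPKM on day 14. Its later samples all lay below all sham samples (10.1% of all genes on day 7 and 5.38% on day 14), at differences of -0.07 and -0.10 on the log2 scale (limma adjusted p = 0.285 and 0.112). Calr and Pdia3, which help in peptide loading, differed by 0.12 and 0.07 on day 7 and by 0.04 and 0.06 on day 14, with the day 14 signs turning under another scaling. These 3 genes and B2m were the 4 members at the highest mean FPKM in sham.

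**Figure D5:**
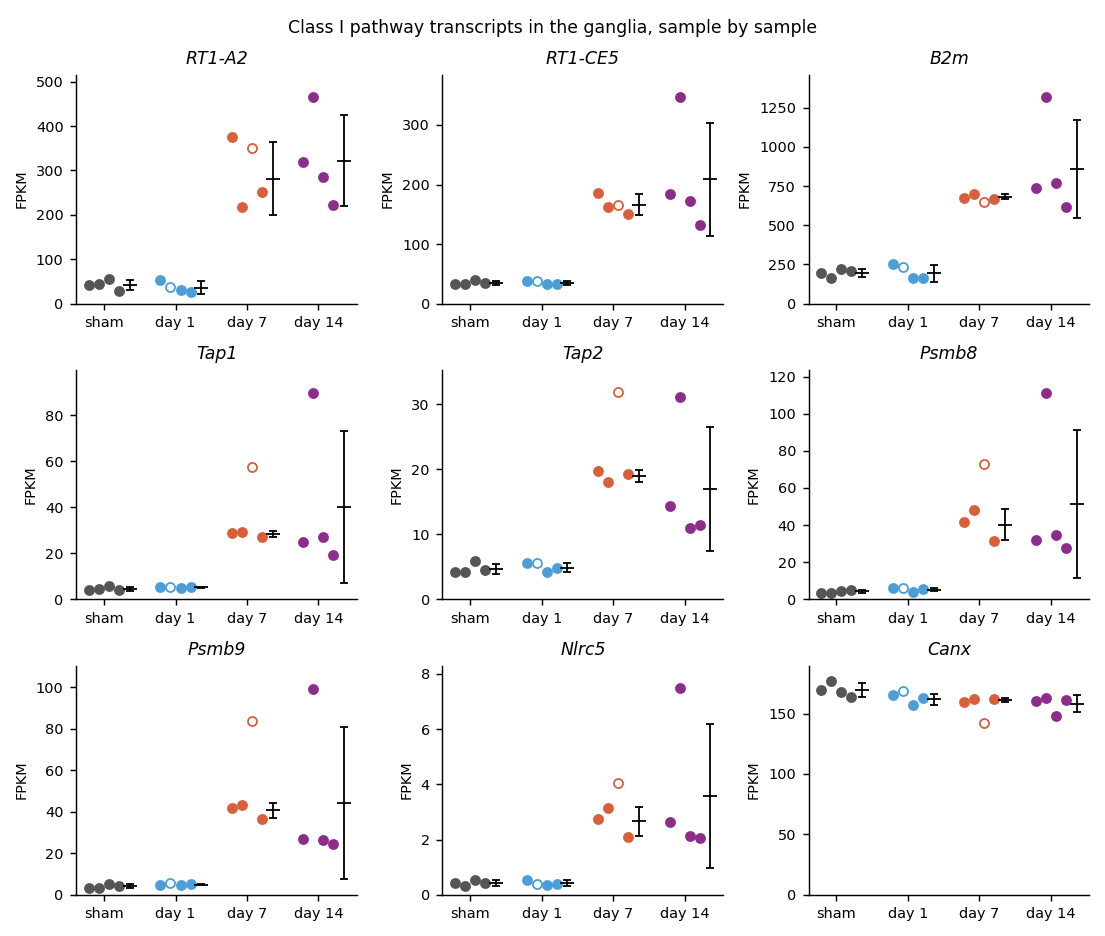
FPKM of 9 members in each sample (linear axes from 0; open points left out of the fit), with the mean and SD of the samples in the fit as the bar to the right of each group. RT1-A2, RT1-CE5, B2m, Tap1, Tap2, Psmb8, Psmb9 and Nlrc5 stand above sham in every day 7 and day 14 sample, TCI day 14 replicate 2 is the highest day 14 point in each panel, and Canx stays between 142 and 177.3 FPKM.

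TCI day 14 replicate 2 was the highest of its group for all 35 members tested, while it was the highest for 25.3% of all genes tested. Among the day 7 libraries, the one left out, replicate 3, was the highest for 20 of the 35 members (25.5% of all genes). In sham, replicate 3 was the highest for 22 members (23% of all genes).

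Other genes of the pathway were counted from lists chosen by function. Of 14 constitutive proteasome core genes, 0 rose and 0 fell on day 7 or day 14 by limma, and 0 and 3 had an unadjusted p under 0.05 (over all genes, 22.6% higher and 8.57% lower on day 7, 20.8% and 9.16% on day 14); their median difference was 0.04 and 0.08 on the log2 scale. The 8 other activators and assembly factors, the 10 chaperones and translocon genes of the endoplasmic reticulum and the 8 other peptidases of antigen processing also had 0 calls on either day, with 4, 3 and 5 genes at an unadjusted p under 0.05 on day 7 and 5, 6 and 3 on day 14. None of the 5 tested class I-like genes outside RT1 passed the limit on size (4 had an unadjusted p under 0.05 on each day). On the log2(FPKM + 1) scale Fcgrt, the neonatal Fc receptor, came nearest at 0.72 on day 7. In mean FPKM, Fcgrt stood at 1.66 times sham on day 7, Procr at 1.70 times and Cd1d1 at 2.05 times. Cd1d1 was at 0.80 to 1.02 FPKM in sham, a level at which the log2(FPKM + 1) scale understates the change.

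Of 17 tested genes of class I transcription and interferon gamma signaling, 0 were called at 0.001 on either day by limma, with 9 and 10 at an unadjusted p under 0.05, and Irf1, a transcription factor of the interferon response, and Ciita, the transactivator of class II genes, passed at 0.05 on both days. Ciita reached 1 FPKM in no sham or day 1 sample and passed the filter on low values only through the later days. Irf1 was at 3.37 to 4.41 FPKM in sham, 21.3 to 22.6 on day 7 and 10.6 to 65.7 on day 14, and its highest value on day 14 was again in replicate 2. Ifng itself was below the filter: it was listed at 0 in all sham and day 1 samples and lay between 0.08 and 0.98 FPKM in every day 7 and day 14 library.

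Of 6 tested genes in a list of class I receptors and their relatives, 3 rose on day 7 (Cd8a, Cd8b and Lilrb4) and 2 on day 14 (Cd8a and Lilrb4). Lilrb4 is listed by its family and is not an established receptor for class I molecules; of the other 5 genes, 2 rose on day 7 and 1 on day 14. Cd8a, the co-receptor chain of cytotoxic T cells, was at most 0.13 FPKM in sham, 5.03 to 13.7 on day 7 and 3.02 to 11.2 on day 14 (log2 3.29 ± 0.34 and 2.503 ± 0.31, SE; limma adjusted p = 9.14e-05 and 0.000546). Lilrb4, an inhibitory receptor of myeloid cells, was at 0.18 to 0.39, 4.82 to 10.98 and 2.82 to 4.94 FPKM. At 0.05 all 6 passed on day 7 and 4 on day 14: Cd8a, Lilrb4, Klrk1 (the activating receptor NKG2D) and Lilrb3 on both days, and Cd8b and Klrd1 on day 7 alone. On day 14 Cd8b and Klrd1 missed only the limit on size, at 0.88 and 0.96 on the log2 scale. None of the 6 reached 1 FPKM in any sham or day 1 sample. They passed the filter on low values only through day 7 and day 14 samples, so these counts favor genes that were high there.

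Markers of macrophages, T cells and cytotoxic lymphocytes, and to a lesser extent of some other cells but not of all, stood higher on the same days as the members. The 10 macrophage markers summed to 30.0 to 56.3 FPKM in sham and 40.9 to 52.0 on day 1, then from 322.1 up to 442.9 on day 7 and from 167 up to 613.1 on day 14; all 10 were tested, and 7 and 5 rose. The 10 T cell markers, Cd8a and Cd8b among them, summed to 5.85 to 8.68 FPKM in sham and 6.26 to 8.69 on day 1, then from 43 up to 101 on day 7 and from 35.1 up to 102.7 on day 14, and 8 and 4 of 9 tested rose. Cd8b was at 0 in all sham samples, and Cd3d and Cd5 were at 0 in the day 1 samples of the fit. Of the 9 T cell markers tested, only Cd4 reached 1 FPKM in any sham or day 1 sample. The others passed the filter on low values only through day 7 and day 14, so these counts favor markers that were high there.

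The 7 cytotoxic lymphocyte markers, 2 of which also stand in the receptor list, summed to 0.73 to 1.52 FPKM in sham and 0.78 to 0.91 on day 1, then from 22.7 up to 50.2 on day 7 and from 9.05 up to 55.5 on day 14, and 3 and 0 of 6 tested rose. None of those 6 reached 1 FPKM in a sham or day 1 sample, so they too passed the filter only through the later days. Neutrophil markers summed to 0.63 to 0.98 FPKM in sham, 4.79 to 19.2 on day 7 and 1.62 to 2.95 on day 14, with 0 of 2 tested called, and Elane and Mpo were at 0 in sham and Elane also on day 14. Fibroblast markers summed to 313.8 to 441.03 FPKM in sham, 475.3 to 603.6 on day 1, 806.4 to 926.3 on day 7 (1 of 5 called) and 265.8 to 777.6 on day 14 (0 called). Endothelial markers summed to 48.1 to 54.99 FPKM in sham, 56.2 to 77.03 on day 7 and 48.9 to 64.7 on day 14, with 0 of 6 called. B and plasma cell markers summed to at most 0.82 FPKM in every library of the fit. Dendritic cell markers summed to 10.2 to 11.3 FPKM in sham, 10.9 to 14.2 on day 7 and 11.6 to 19.8 on day 14, with 0 of 3 tested called. Schwann cell markers summed to 8315 to 11146 FPKM in sham and 12362 to 13750 on day 1. They stood at 6814 to 8473 on day 7 and 7032 to 10850 on day 14, with 0 of 6 called. Sensory neuron markers summed to 7301 to 8020 FPKM in sham, 6666 to 7362 on day 7 and 6677 to 8395 on day 14, with 0 of 11 called. Satellite glia markers summed to 208.4 to 225.7 FPKM in sham, 229.1 to 234.3 on day 7 and 154.6 to 226.4 on day 14, with 0 of 4 called. Epithelial markers summed to 71.99 to 86.02 FPKM in sham, 63.02 to 76.26 on day 7 and 58.7 to 75.91 on day 14, with 0 of 3 tested called. TCI day 14 replicate 2 had the highest sums of its group for macrophages (613.1 FPKM), T cells (102.7) and cytotoxic lymphocytes (55.5). TCI day 7 replicate 3, left out, had the lowest T cell and cytotoxic sums of its group, 28.8 and 16.3 FPKM, and the second highest macrophage and neutrophil sums, 386.2 and 12.4 FPKM, while its Psmb8 and Tap1, at 72.8 and 57.4 FPKM, were the highest of that group. The part of these cells in the members' levels was not tested.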

How the data were processed

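Total RNA from 16 samples of rat DRG was sequenced. The authors mapped the reads with HISAT/Bowtie2, quantified genes with RSEM and deposited 1 table of FPKM per sample; the labels name CASAVA 1.4 and Bowtie2, and the genome build and gene models are not given in the sources used here. FPKM carry no counts, so the number of reads behind a value is not given, though the study reports an average read number per sample. FPKM summed to between 436572 and 473959 per sample.

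Samples were grouped by the labels. limma 3.58.1 in R 4.3.3 (empirical Bayes with an intensity trend, no covariates) was fitted to log2(FPKM + 1) of genes that reached 1 FPKM in 3 or more samples, with all 4 groups in 1 fit of 14 samples and Benjamini-Hochberg adjustment over 14023 genes; a call needed an adjusted p of at most 0.001 and a difference of at least 1. Fold changes are on the log2(FPKM + 1) scale, which understates the change of low genes. The script was tested on simulated data. Sums and ratios of FPKM were described without a test.

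Alternatives were all 16 samples, each pair of groups alone, a pseudocount of 0.1, a required mean of 5 FPKM, no filter, TPM scaling, quantile normalization, no intensity trend, a replicate block, an adjusted p of 0.05 and each library left out. Named were all 15 processing genes and every RT1 row past the filter (values per sample for the 3 of highest mean and for B2m, Tap1, Tap2, Psmb8, Psmb9, Psmb10, Nlrc5 and Canx), called genes of the pathway lists and, whatever their value, Psmb5, Psmb6, Psmb7, Irf1 and Ifng, besides 1 gene that, like 1 of the motifs searched, is not reported here; further genes were named after their values were seen. The members and lists were chosen with earlier results of these data known. Gene order and promoter windows came from RefSeq GRCr8; RT1-M2, RT1-CE7, Nlrc5, Erap1, RT1-M1-4, RT1-M4 and Pdia3 had no window.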

Additional observations from a re-analysis of the deposited data

Results flagged for a closer look

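Within each group of 4, libraries left out of the fit included, a sample was singled out where its gap to the next one was over Dixon's 95% critical value, as a share of the group's range. This picked 24 of 140 gene and group pairs and 5 sums or ratios. The members share libraries and vary together, so the pairs are not independent. Their number cannot be set against the 5% expected for independent groups, and the share over all genes tested is not given here. TCI day 14 replicate 2 was the high sample in 13 of the gene cases. There it stood at 7.47 FPKM for Nlrc5, 111.2 for Psmb8, 99.4 for Psmb9, 144.2 for Psme1, 103.8 for Psme2, 89.8 for Tap1, 31.1 for Tap2 and 75.2 for Tapbp. Among RT1 rows it stood at 79.4 FPKM for RT1-CE4, 20.3 for RT1-M3-1, 5.68 for RT1-O1, 86.0 for RT1-T24-3 and 119.8 for RT1-T24-4. Its ratios were 0.735 for Psmb8 to Psmb5, 0.613 for Psmb9 to Psmb6 and 0.545 for Psmb10 to Psmb7, and its RT1-A and RT1-CE share was the low one at 79.4%.

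TCI day 7 replicate 3, left out of the fit, was the high sample for Psmb9 (83.6 FPKM), Psme1 (118 FPKM), Psme2 (83.7 FPKM), Tap1 (57.4 FPKM) and Tap2 (31.9 FPKM) and the low one for Canx (142 FPKM). Other high samples were sham replicate 3 for RT1-T24-3 (6.42 FPKM) and Tap2 (5.83 FPKM), sham replicate 4 for Calr (263.8 FPKM) and TCI day 1 replicate 1 for Nlrc5 (0.53 FPKM) and Psmb10 to Psmb7 (0.103). TCI day 14 replicate 3 was low for Canx (147.9 FPKM).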

How the results depend on the processing

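The number of members that rose depended on the threshold more than on the scaling. On day 7 (15 members) it was 24 at an adjusted p of 0.05, 8 with no filter on low values and 8 with a replicate block. On day 14 (14 members) it was 25 at 0.05, 7 with no filter, 7 with the replicate block and 1 with sham and day 14 alone in the fit; the cause was not tested. With all 16 samples it was 18 on day 7 and 14 on day 14. Leaving out 1 library gave between 5 and 24 for day 7 and between 7 and 18 for day 14. On day 7 the count was 5 without TCI day 7 replicate 1, 6 without replicate 2 of that group or without sham replicate 1 or 2, and 24 without TCI day 14 replicate 2. On day 14 it was 7 without sham replicate 1, 2 or 3 and 8 without sham replicate 4. At 0.05 the same fits gave 20 to 25 and 21 to 27. The counts of 0 for day 1 and for day 14 against day 7 stayed at 0 in every fit at 0.001. Replicate numbers name different rats: of 18 same-numbered pairs, 4 had deviations correlated over 0.1 (range -0.10 to 0.27).

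With all 16 samples, Psmb9 to Psmb6 was 1.17 times sham on day 1 and 11.7 times on day 7. Leaving out 1 library, it ran from 1.04 to 1.26 for day 1, from 9.30 to 11.3 for day 7 and from 6.21 to 12.6 for day 14. The sum of class I rows ran from 4.76 to 5.57 times sham for day 7 and from 4.81 to 6.95 for day 14, and Psmb8 to Psmb5 from 8.72 to 11.3 and 7.17 to 14.2.

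Signs turned for values near 0. On day 7 they were, on the log2 scale, -0.042 for Psmb5 under TPM scaling and -0.041 under quantile normalization, 0.063 for Psmb6 with all 16 samples and 0.019 with the replicate block, and 0.044 for Psmb7 with all 16 samples. On day 14 they were -0.0024 for Pdia3 and -0.056 for Calr under quantile normalization, -0.035 for Psmb6 there and -0.027 under TPM scaling, and -0.0094 for Calr under TPM scaling. Leaving out 1 library, RT1-O1 ran from -0.29 to 0.017 on day 7, Psmb5 from -0.074 to 0.086 and Psmb6 from -0.043 to 0.019, and for day 14 Psmb5 ran from -0.028 to 0.103, Psmb6 from -0.064 to 0.077, Pdia3 from -0.0088 to 0.1004 and Calr from -0.026 to 0.105.

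The reads behind a value are not given by FPKM, so the counting error of low rows such as Nlrc5 and RT1-M1-2 was not estimated. In addition, 3 or 4 rats per group limit the precision.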
